A study of Homo sapiens with 9 samples.

Results

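The actin cytoskeleton was followed through 10 of its genes in every deposited gene list of a breast cancer cell line, MDA-MB-231, that received vehicle, TXX-1-10 or rimonabant. They are ACTB, ACTG1, FLNA, ACTN1, TPM4, TPM1, TAGLN, VCL, ZYX and MYL9, which are commonly described as targets of serum response factor (SRF). Their rows were taken from the lists by gene name, and the 10 were found among the 27615 genes of the longest list. MDA-MB-231 is an established triple-negative line. The vehicle was DMSO, rimonabant is a blocker of the CB1 cannabinoid receptor, and the compound TXX-1-10 was derived from it. RNA-seq was made for 3 libraries per treatment, 9 in all, and the sources used here name neither the dose nor the time for which the sequenced cells were treated. Hence whether rimonabant and TXX-1-10 were given at matched doses is not known.

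Actin monomers assemble into filaments that are bundled, tied to the membrane and pulled on by myosin. SRF binds a short DNA element, the CArG box, and one family of its coactivators, the myocardin-related transcription factors (MRTF), is held inactive by free actin monomers. Many genes that build the filaments are therefore transcribed in step with the state of actin itself, and in adherent carcinoma cells these genes are among the abundant messages.

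All 10 genes were lower after TXX-1-10 and after rimonabant than in vehicle-treated cells, and the size of the difference varied widely among them. The myosin light chain MYL9 fell by 82.2% with TXX-1-10 and by 60.8% with rimonabant. Both cytoplasmic actins and the adhesion protein vinculin (VCL) fell by 61.7% to 66.3% with TXX-1-10. The filamin FLNA, the tropomyosin TPM4 and zyxin (ZYX) had their larger difference with rimonabant.

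The library total by which the FPKM values were divided was 17078370 to 17245379 with vehicle, 17477838 to 18813662 with rimonabant and 18394759 to 19277808 with TXX-1-10. Which reads it counts is not named in the sources used here, and it differs from the sum of all listed counts. That sum was 17492638 in vehicle replicate 1, above its total of 17078370, and 17586399 in TXX-1-10 replicate 1, below its total of 19277808. The lists used here end at different points of an order from high to low counts. The list of rimonabant replicate 1 ends after 4237 genes and does not reach TAGLN or TPM1, which therefore have 8 libraries, and a gene not reached is not a gene at 0. In rimonabant replicate 1 and TXX-1-10 replicate 3, longer genes had lower counts than in the other replicates (Spearman correlation -0.69 of that deviation with length in both over 4237 genes, a description), whereas it was -0.03 to 0.03 in the vehicle libraries. In both of these libraries VCL was the lowest of the 8 genes relative to its group and ACTG1 the highest. Nothing in the labels says that replicates came from separate cultures, so p-values measure the spread between these libraries, which may be technical. In bulk RNA, fewer cells carrying a message and less of it per cell cannot be told apart. Of the markers of this mesenchymal-type line, VIM, CD44, AXL, MSN, KRT8 and KRT18 were listed for 9 of 9 libraries, with VIM at 224 to 329 FPKM (the count divided by gene length and library total) and MSN at 239 to 272. Other markers of the line moved with treatment. AXL was at 212 to 221 FPKM with vehicle, 182 to 195 with rimonabant and 124 to 129 with TXX-1-10, and KRT8 at 67.7 to 69.1, 38.6 to 44.6 and 34.1 to 39.4. KRT18 was at 72.4 to 76.9, 39.5 to 51.1 and 43.6 to 51.2 FPKM in the same order, and CD44 at 39.3 to 40.1, 46.1 to 48.2 and 27.4 to 27.9. The smooth muscle markers MYH11 (0.0891 to 0.198 FPKM), DES (at most 0.0951), CNN1 (at most 0.0748) and ACTA2 (0.390 to 0.943) were near 0 in the libraries that list them, while SMTN was at 9.26 to 13.2.

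RefSeq promoter windows of GRCh38.p14, from 250 bases before to 50 after each start, were at hand for 7 of the 10 genes (12 windows), and not for ACTB, TAGLN and MYL9. On either strand the CArG box was found in 4 of these 7 genes, ACTG1, FLNA, TPM4 and ACTN1, and in 1.60% of all 27305 genes with a window. By windows it was in 4 of 12, against 1.29% of all 35116. No box lay in the windows of VCL, TPM1 and ZYX, which says only that these letters are not in those windows. The stretches that hold the boxes are shown because they are the feature that the SRF label refers to, and the gene of SRF itself is added because it carries a pair of boxes of its own. Each is written 5′ to 3′ on the strand of its gene, with the box in capitals.
ACTG1: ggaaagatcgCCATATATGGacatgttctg
FLNA: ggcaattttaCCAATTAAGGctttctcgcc
TPM4: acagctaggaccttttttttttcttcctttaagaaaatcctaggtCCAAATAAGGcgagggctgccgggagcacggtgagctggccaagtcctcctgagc
ACTN1: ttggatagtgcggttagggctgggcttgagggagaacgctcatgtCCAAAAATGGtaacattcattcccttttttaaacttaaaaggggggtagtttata
SRF: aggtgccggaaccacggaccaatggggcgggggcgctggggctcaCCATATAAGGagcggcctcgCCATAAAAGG
The ACTG1 stretch lies at chr17:81512874-81512903 on the minus strand and the FLNA stretch at chrX:154374709-154374738 on the minus strand. In both genes the box spans bases -94 to -85 from the start. The TPM4 stretch is at chr19:16067320-16067419 on the plus strand, with its box at -173 to -164. The ACTN1 stretch is at chr14:68977683-68977782 on the minus strand, with its box at -171 to -162 from the third of 4 starts. The SRF stretch is at chr6:43171194-43171268 on the plus strand, with boxes at -30 to -21 and at -10 to -1. Of these stretches, those of ACTG1 and FLNA run partly over exons of GENCODE release 29 transcripts, and those of TPM4, ACTN1 and SRF do not.

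**Figure D1:**
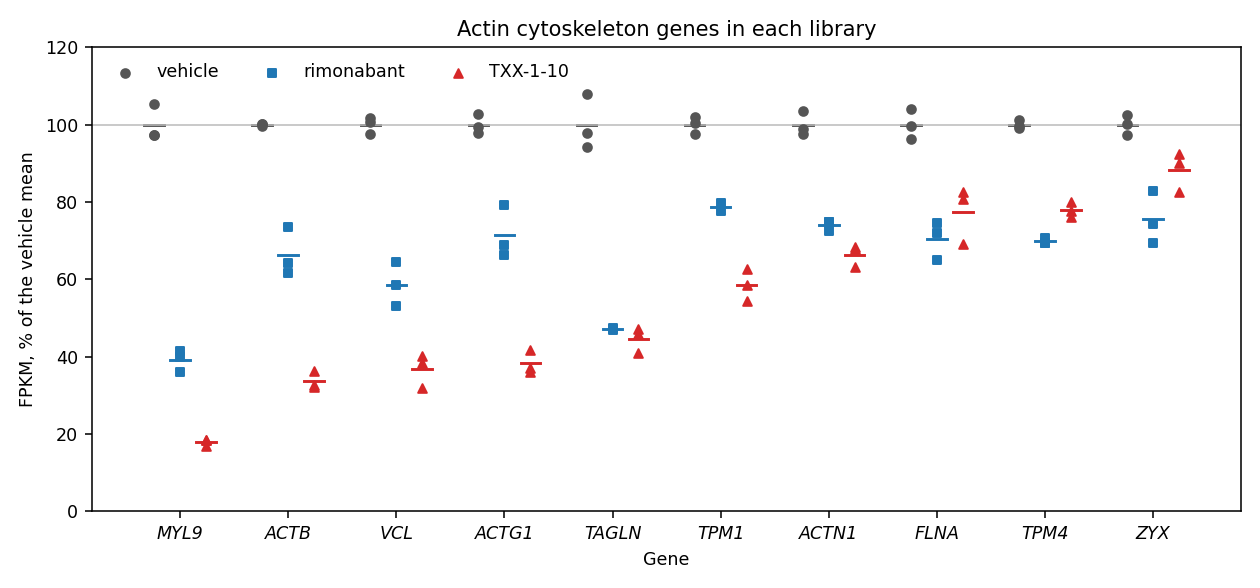
FPKM of the 10 genes in each library in percent of the mean of the vehicle libraries, with a point per library, a short bar at each group mean and a line at 100%. TAGLN and TPM1 have 8 points, and in each of the 10 genes the vehicle points lie above those of both treatments, with MYL9 lowest and ZYX least changed after TXX-1-10. How many of all tested genes have groups without overlap was not counted.

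The filament is made of the 2 cytoplasmic actins. ACTB encodes beta-actin (ENSG00000075624, chr7:5527147-5563784, GRCh38). Its level was 1306, 1315 and 1315 FPKM in vehicle replicates 1 to 3, 964, 808 and 843 with rimonabant, and 429, 422 and 475 with TXX-1-10. The groups did not overlap, and the lowest rimonabant library stood well above the highest TXX-1-10 library. ACTB fell by 66.3% with TXX-1-10 (a log2 fold change of -1.57 ± 0.08 SE, edgeR adjusted p = 4.56e-08) and by 33.6% with rimonabant (-0.59 ± 0.08, adjusted p = 0.000209). ACTG1 encodes gamma-actin (ENSG00000184009, chr17:81509971-81523847), a protein nearly identical to beta-actin. It stood at 724, 734 and 759 FPKM with vehicle, 587, 489 and 509 with rimonabant and 274, 266 and 309 with TXX-1-10, again without overlap. Its log2 fold change was -1.39 ± 0.08 with TXX-1-10 (edgeR adjusted p = 1.52e-07) and -0.48 ± 0.08 with rimonabant (adjusted p = 0.000877). The coding sequences of the actins are closely alike, so how their reads were shared between them is uncertain. The ratio of ACTG1 to ACTB in FPKM was 0.563 ± 0.0121 (SD, n = 3) with vehicle, 0.606 ± 0.00261 with rimonabant and 0.639 ± 0.00942 with TXX-1-10, and the ranges of the 3 groups did not overlap.

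Crosslinkers join filaments into bundles and networks. FLNA encodes filamin A (ENSG00000196924, chrX:154348524-154374638), which crosslinks filaments at wide angles, and its level was 188, 194 and 202 FPKM with vehicle, 126, 145 and 140 with rimonabant and 157, 161 and 134 with TXX-1-10. Both treatments lay below vehicle, and their ranges overlapped each other. FLNA fell by 29.5% with rimonabant (-0.50 ± 0.08 on the log2 scale, edgeR adjusted p = 0.000679) and by 22.6% with TXX-1-10 (-0.37 ± 0.08, adjusted p = 0.00198). The lowest FLNA value in each treated group came from the library in which longer genes had lower counts. Without those libraries the log2 fold change was -0.45 with rimonabant and -0.29 with TXX-1-10. ACTN1 encodes alpha-actinin 1 (ENSG00000072110, chr14:68874143-68979440), which bundles filaments in stress fibers and adhesions. It was at 125, 127 and 133 FPKM with vehicle, 93.0, 96.1 and 96.0 with rimonabant and 86.9, 87.6 and 81.1 with TXX-1-10, with no overlap between groups. It fell by 33.6% with TXX-1-10 (-0.59 ± 0.05, edgeR adjusted p = 3.19e-06) and by 25.9% with rimonabant (-0.43 ± 0.05, adjusted p = 0.000128).

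Tropomyosins lie along the filament and govern what else can bind it. TPM4 (ENSG00000167460, chr19:16067021-16103005) was the more abundant tropomyosin of the pair, at 96.2, 94.8 and 94.2 FPKM with vehicle, 67.3, 66.0 and 66.0 with rimonabant and 73.8, 72.4 and 76.1 with TXX-1-10. The order of the treatments was thus the opposite of that for the actins, with rimonabant lowest. TPM4 fell by 30.1% with rimonabant (-0.52 ± 0.04 on the log2 scale, edgeR adjusted p = 1.66e-05) and by 22.0% with TXX-1-10 (-0.36 ± 0.04, adjusted p = 3.47e-05). TPM1 (ENSG00000140416, chr15:63042632-63071915) was at 4.92, 4.72 and 4.84 FPKM with vehicle, 3.74 and 3.84 in rimonabant replicates 2 and 3, and 2.62, 2.82 and 3.03 with TXX-1-10. Here TXX-1-10 was lowest, and no groups overlapped. TPM1 fell by 41.5% with TXX-1-10 (-0.77 ± 0.06, edgeR adjusted p = 2.46e-07) and by 21.4% with rimonabant (-0.35 ± 0.07, adjusted p = 0.0016). TPM4 exceeded TPM1 by a ratio of 19.7 ± 0.358 in FPKM with vehicle (n = 3), 17.4 ± 0.314 with rimonabant (n = 2) and 26.3 ± 1.58 with TXX-1-10 (n = 3). TAGLN encodes transgelin (ENSG00000149591, chr11:117199321-117204782), a calponin-family protein that binds filaments. It was low in these cells, with 388, 448 and 406 reads with vehicle, 215 and 209 in rimonabant replicates 2 and 3, and 190, 209 and 203 with TXX-1-10. Every treated library held fewer reads than any vehicle library, and the treated groups overlapped. In FPKM its mean was 6.15 ± 0.431 with vehicle, 2.90 ± 0.0265 with rimonabant (n = 2) and 2.74 ± 0.202 with TXX-1-10. TAGLN fell by 55.4% with TXX-1-10 (-1.16 ± 0.09, edgeR adjusted p = 1.45e-07) and by 52.9% with rimonabant (-1.08 ± 0.10, adjusted p = 7.98e-06).

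At adhesions, vinculin links talin to the filament and zyxin is recruited to filaments under strain. VCL (ENSG00000035403, chr10:73995193-74121363) was at 45.2, 43.8 and 45.8 FPKM with vehicle, 23.8, 28.9 and 26.2 with rimonabant and 17.2, 18.1 and 14.4 with TXX-1-10, with no overlap. It fell by 63.1% with TXX-1-10 (-1.44 ± 0.09 on the log2 scale, edgeR adjusted p = 2.52e-07) and by 41.4% with rimonabant (-0.77 ± 0.09, adjusted p = 0.000103). The ratio of ACTN1 to VCL in FPKM was 2.85 ± 0.0771 with vehicle, 3.63 ± 0.292 with rimonabant and 5.17 ± 0.414 with TXX-1-10, so this pair of adhesion genes did not move in proportion. ZYX (ENSG00000159840, chr7:143381080-143391111) was at 63.3, 61.6 and 64.9 FPKM with vehicle, 52.4, 43.9 and 47.0 with rimonabant and 57.0, 52.3 and 58.5 with TXX-1-10. The treated groups overlapped each other at 52.3 and 52.4 FPKM, and both lay below vehicle. ZYX fell by 24.5% with rimonabant (-0.41 ± 0.07, edgeR adjusted p = 0.000941). With TXX-1-10 its difference was the smallest of the 10, at -0.18 ± 0.07 (adjusted p = 0.0374, 95% interval -0.33 to -0.02), and it did not pass after TMM, median, DESeq2 or quantile scaling (adjusted p = 0.246 to 0.644). Nor did it pass without vehicle replicate 1, 2 or 3, rimonabant replicate 3, or TXX-1-10 replicate 1 or 2 (adjusted p = 0.0542 to 0.135).

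MYL9 encodes a regulatory light chain of myosin II (ENSG00000101335, chr20:36541484-36551447), whose phosphorylation switches on contraction. It was at 38.9, 35.9 and 35.9 FPKM with vehicle, 15.3, 13.3 and 14.7 with rimonabant and 6.77, 6.19 and 6.78 with TXX-1-10. Each treated group was far outside the range of the next. The log2 fold change was -2.49 ± 0.07 with TXX-1-10 (edgeR adjusted p = 9.66e-10) and -1.35 ± 0.07 with rimonabant (adjusted p = 5.29e-07), the largest of the 10 in both comparisons.

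**Figure D2:**
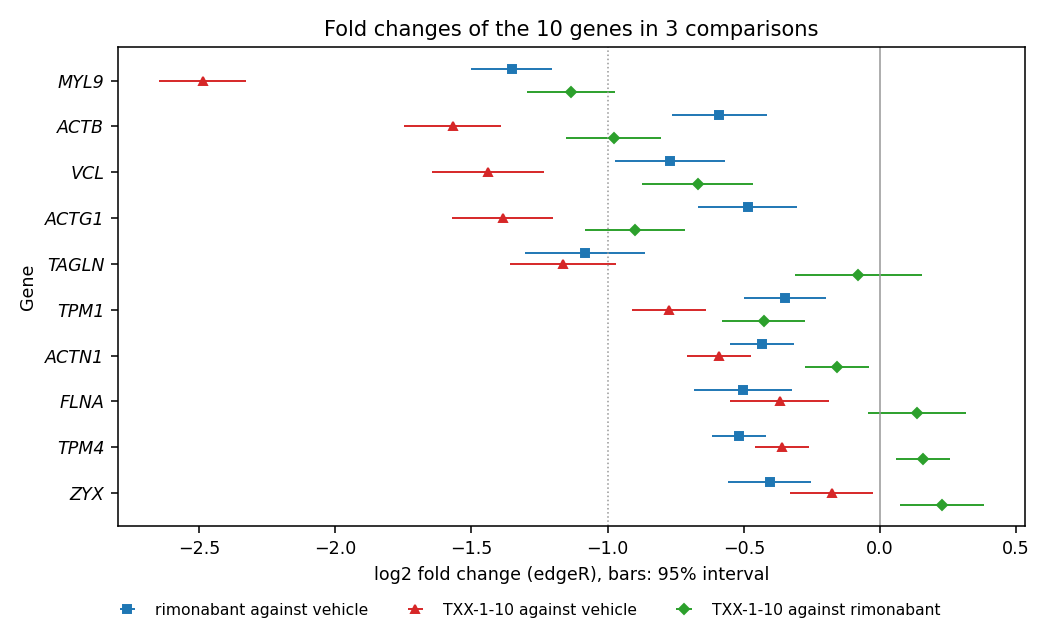
Log2 fold changes of the 10 genes for TXX-1-10 against vehicle, rimonabant against vehicle and TXX-1-10 against rimonabant, with 95% intervals. MYL9 is farthest below 0 in all 3 comparisons, and TPM4 and ZYX lie above 0 in the direct comparison.

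With TXX-1-10, 10 of the 10 genes passed as lower at an adjusted p under 0.05, against 43.8% of the 4236 genes in the fit of 9 libraries and 40.6% of the 9369 in the fit of 8 libraries that holds TAGLN and TPM1. With a log2 fold change of -1 or below as well, 5 passed (MYL9, ACTB, VCL, ACTG1 and TAGLN), against 7.6% and 7.39%. The median log2 fold change of the 10 was -0.97, and that of all tested genes was -0.09 and -0.04 in these fits. With rimonabant, 10 of 10 passed as lower, against 25.2% and 22.8%, and 2 also passed the fold threshold (MYL9 and TAGLN), against 0.614% and 0.758%. Their median was -0.51, beside -0.02 and 0.00 for all tested genes. Both comparisons use the same 3 vehicle libraries. TMM, median, DESeq2 and quantile scaling each raised the log2 fold changes of all genes with TXX-1-10 by 0.10 at the median. Even so, the log2 fold changes of MYL9, ACTB, VCL and ACTG1 were no higher than -1.23 in any of these, the value of ACTG1 with quantile scaling. TAGLN was no longer past the fold threshold with quantile scaling (-0.91) or with limma on log2(FPKM + 1), which leaves 4 genes past it in place of 5. At the adjusted p alone, ZYX did not pass with TXX-1-10 after TMM, median, DESeq2 or quantile scaling (0.246 to 0.644). FLNA did not pass with TXX-1-10 after quantile scaling (adjusted p = 0.118 by limma).

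The members took up less of each library. The 8 genes listed for 9 libraries held 1.18% ± 0.0186 (SD, n = 3) of the library total with vehicle, 0.815% ± 0.0322 with rimonabant and 0.592% ± 0.00188 with TXX-1-10. Since it is not known which reads the total counts, the share was also taken of the summed counts of the 4237 genes in all lists, an alternative chosen after the data were seen, and was 1.43% ± 0.0318, 1.03% ± 0.0175 and 0.806% ± 0.0211. The groups did not overlap on either base. ACTB alone held 0.460% to 0.463%, 0.284% to 0.339% and 0.149% to 0.167% of the library total in these groups. The order of the 8 by FPKM was nevertheless the same in each group, from ACTB and ACTG1 through FLNA, ACTN1, TPM4, ZYX and VCL to MYL9, with no overlap between neighbours. TAGLN was above TPM1 with vehicle and below it with rimonabant, and the pair overlapped with TXX-1-10.

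**Figure D3:**
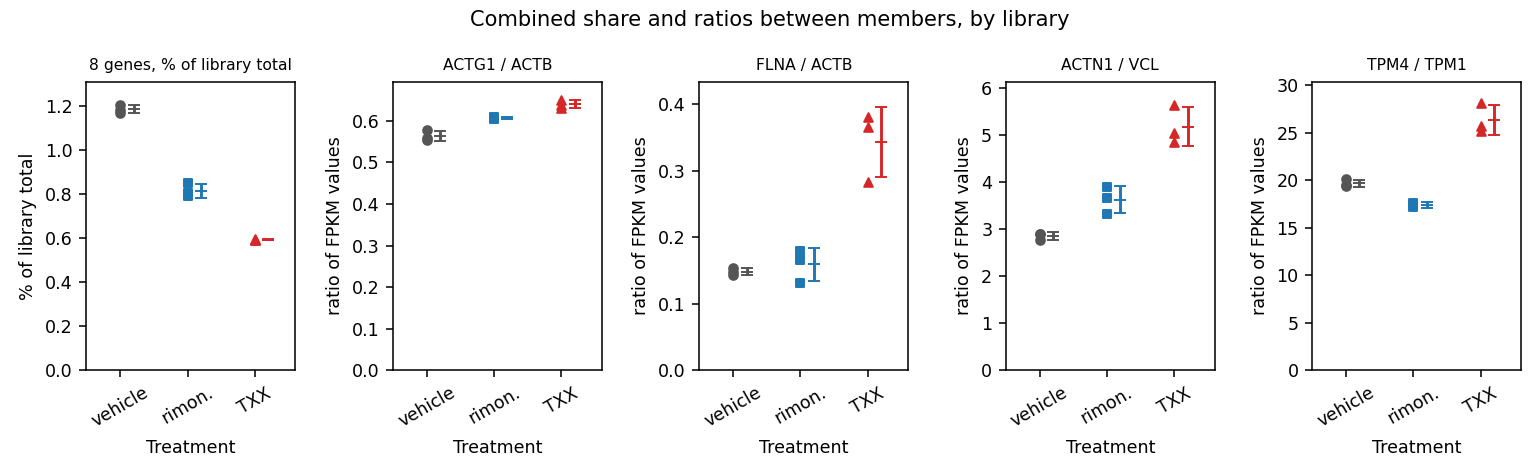
Share of the library total held by the 8 genes listed for all libraries, in percent, and ratios of FPKM between pairs of genes, with a point per library and the mean and SD of each group beside it. The share steps down from vehicle (1.17% to 1.21%) to rimonabant (0.791% to 0.852%) to TXX-1-10 (0.590% to 0.594%), while the ratio of FLNA to ACTB is highest with TXX-1-10 (0.343 ± 0.0527). In each treated group that ratio is lowest in the library where longer genes had lower counts. It is 0.131 in rimonabant replicate 1 and 0.283 in TXX-1-10 replicate 3.

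Set directly against rimonabant, TXX-1-10 gave 6 genes that were lower, against 39.4% and 33.9% of the genes in the fits of 9 and 8 libraries, and 2 that were higher, against 25.1% and 26.7%. The median of the 10 was -0.29, beside -0.08 and -0.04 for all tested genes. MYL9 alone was past the fold threshold (1 of 10), at -1.13 ± 0.07 (edgeR adjusted p = 5.23e-07), where 4.34% and 4.31% of the genes were. ACTB followed at -0.98 ± 0.08 (adjusted p = 2.6e-06 by edgeR), ACTG1 at -0.90 ± 0.08 (6.55e-06), VCL at -0.67 ± 0.09 (0.000115) and TPM1 at -0.43 ± 0.07 (0.000224). ACTN1 was at -0.16 ± 0.05 (edgeR adjusted p = 0.0237), and this call was lost after other scaling (-0.07, adjusted p = 0.249 to 0.469) and without rimonabant replicate 2 or 3 or TXX-1-10 replicate 3 (0.0583 to 0.0704). TPM4 was higher with TXX-1-10 than with rimonabant, at 0.16 ± 0.04 (edgeR adjusted p = 0.0101), and ZYX at 0.23 ± 0.07 (0.0148). The ZYX call was lost without rimonabant replicate 2 (0.17, adjusted p = 0.0523) or 3 (0.22, adjusted p = 0.05), and the TPM4 call after a correction for gene length (0.11, adjusted p = 0.0806). TAGLN differed by -0.08 ± 0.11 (95% interval -0.31 to 0.15, edgeR adjusted p = 0.537) and FLNA by 0.13 ± 0.08 (-0.05 to 0.32, adjusted p = 0.168). The FLNA value passed without TXX-1-10 replicate 3 (0.21, edgeR adjusted p = 0.0183) and after TMM, median or DESeq2 scaling (0.22, adjusted p = 0.021 to 0.0478). Scaling moved the split of all calls in this comparison, from 1065 higher and 1667 lower to 1381 and 1349 with TMM.

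The transcription factor SRF was at 28.7 ± 1.29 FPKM with vehicle, 27.5 ± 0.131 with rimonabant and 27.6 ± 0.813 with TXX-1-10, and its log2 fold change was -0.06 in both comparisons (edgeR adjusted p = 0.295 and 0.298), turning to 0.04 with TXX-1-10 under other scaling. Of its coactivators, MRTFB fell with TXX-1-10 (-0.94 ± 0.11, edgeR adjusted p = 8.55e-06) and was at -0.08 with rimonabant (adjusted p = 0.615). MRTFB was low, over 8 libraries at 1.78 ± 0.0796 FPKM with vehicle, 1.69 ± 0.0776 with rimonabant and 0.929 ± 0.171 with TXX-1-10. Its fall with TXX-1-10 passed in all 22 alternatives and was smallest, at -0.43, with quantile normalization. MRTFA, over 8 libraries, was at -0.11 with TXX-1-10 (adjusted p = 0.184 by edgeR). With rimonabant it was higher, at 0.23 ± 0.08 (edgeR adjusted p = 0.0265), and did not pass with DESeq2 or quantile normalization (adjusted p = 0.0579 and 0.0523), or without vehicle replicate 1 or 2 or rimonabant replicate 2 or 3 (0.0616 to 0.117). RHOB, a small GTPase, rose from 20.5 ± 1.39 to 89.8 ± 4.67 FPKM with TXX-1-10 and was at 18.4 ± 1.74 with rimonabant. Among 14 genes for SRF, its cofactors and their regulators, 5 passed as lower and 5 as higher with TXX-1-10, and 3 and 4 with rimonabant. All tested genes gave 43.8% lower and 30.5% higher with TXX-1-10, and 25.2% and 23.7% with rimonabant, in the fit of 9 libraries, so the counts of this list are near those shares.

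Other described SRF targets went both ways, more of them lower than higher. Among all tested genes 43.8% (fit of 9 libraries) and 40.6% (fit of 8) passed as lower with TXX-1-10, and 25.2% and 22.8% with rimonabant. As higher, 30.5% and 34.7% passed with TXX-1-10, and 23.7% in either fit with rimonabant. Of 27 tested of 30 listed, 18 passed as lower and 6 as higher with TXX-1-10 (median -0.46), and 16 and 4 with rimonabant (median -0.20). In both comparisons the lower part of this list was thus above the share of all tested genes, and the higher part below it. THBS1, a secreted adhesive glycoprotein, fell by 3.39 and 1.80 on the log2 scale. The matricellular genes CCN2 and CCN1 fell by 2.87 and 1.91 with TXX-1-10 (edgeR adjusted p = 3.35e-10 and 3.79e-09). With rimonabant they stood at -0.18 and -0.08 (edgeR adjusted p = 0.0241 and 0.308). There CCN2 did not pass in 6 of 23 alternatives, and CCN1 newly passed in 3 of 23. JUNB, an AP-1 transcription factor, rose by 1.76 and 0.76 in the 2 comparisons. EGR1, an immediate early transcription factor named after its values were seen, rose from 23.0 ± 1.13 FPKM to 52.0 ± 1.23 with TXX-1-10 and 48.6 ± 3.81 with rimonabant.

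Paralogs of the members and the non-muscle myosin heavy chains, apart from ACTN4, MYH10 and MYL12A also named after their values were seen, differed in size and direction. ACTN4, the alpha-actinin that was the more abundant with vehicle (203 ± 6.49 FPKM), fell by 1.36 with TXX-1-10 and by 0.65 with rimonabant on the log2 scale (edgeR adjusted p = 1.28e-08 and 1.79e-05). The calponins CNN2 and CNN3 fell by 1.18 and 1.10 with TXX-1-10 and by 0.71 and 0.36 with rimonabant. TPM3 fell by 0.53 with TXX-1-10, whereas TPM2 rose by 0.41 (8 libraries, edgeR adjusted p = 0.000149), and both were near vehicle with rimonabant (-0.07 and -0.09, adjusted p = 0.368 and 0.359). The non-muscle myosin heavy chains MYH9 and MYH10 fell by 0.94 and 1.48 with TXX-1-10 and by 0.41 and 0.43 with rimonabant.

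The remaining actin machinery was counted against the same shares of all tested genes, 43.8% lower with TXX-1-10 and 25.2% with rimonabant. In the same fit of 9 libraries, 30.5% and 23.7% of all tested genes passed as higher. In the myosin II list 6 of 6 genes passed as lower with TXX-1-10 and 5 of 6 with rimonabant (medians -0.70 and -0.39), among them MYLK, the kinase that phosphorylates MYL9, at -1.04 and -0.85. MYLK was low, over 8 libraries at 3.17 ± 0.0586 FPKM with vehicle, 1.76 ± 0.177 with rimonabant and 1.54 ± 0.107 with TXX-1-10. Of 10 crosslinkers and bundlers, 8 passed as lower and 1 as higher in each comparison (medians -0.62 and -0.37). The bundler FSCN1 fell by 1.38 and 0.36, and LCP1, an actin bundler best known from leukocytes, rose by 1.41 and 0.56. Of the leukocyte markers, PTPRC was at most 0.0639 FPKM where it was listed, and LAPTM5 was at 19.7 to 21.8 FPKM with vehicle, 14.6 to 16.1 with rimonabant and 13.1 to 13.8 with TXX-1-10. CD74 was at 2.02 to 2.39, 1.22 to 1.44 and 0.905 to 1.31 FPKM in these groups, and the part of other cells in the LCP1 values was not tested. With TXX-1-10 the lower genes of the other lists were near the share of all genes. Of 15 nucleation and capping genes 7 passed as lower and 2 as higher with TXX-1-10, and 4 and 0 with rimonabant. The formin DIAPH3 fell by 1.60 with TXX-1-10, and WASL, an activator of the Arp2/3 complex, rose by 0.65. Of 11 genes that bind or sever actin monomers and filaments, 5 passed as lower and 1 as higher with TXX-1-10, and 4 and 1 with rimonabant. Of 10 linkers to membrane and adhesions the counts were 4 and 1, then 4 and 0. With rimonabant the lower genes in the last pair of lists were 4 of 11 and 4 of 10, above 25.2%, and most genes of these lists did not pass as lower in either comparison. In every list of this paragraph, higher genes were a smaller part than among all tested genes, in both comparisons. The lists are short, and this was not tested.

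Across all 7507 tested genes with a promoter window, the 124 with a CArG box had a median log2 fold change of -0.10 with TXX-1-10 and -0.08 with rimonabant, and the 7383 without it -0.05 and 0.01. Of the genes with a box 45.2% passed as lower with TXX-1-10 and 31.5% with rimonabant, against 39.8% and 21.5% of those without. The members with a box, ACTG1, ACTN1, FLNA and TPM4, were at -1.39, -0.59, -0.37 and -0.36 with TXX-1-10. Those with a window but no box, VCL, TPM1 and ZYX, were at -1.44, -0.77 and -0.18. ACTB, TAGLN and MYL9 had no window, and a difference between such small sets was not tested.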

How the data were processed

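RNA of MDA-MB-231 cells was selected with oligo(dT), made into NEBNext Ultra libraries and sequenced on an Illumina instrument. The submitters' processing notes name HISAT2 2.0.5 and featureCounts 1.5.0-p3, and whether counting used strand is not given in the sources used here. For each library the authors deposited the count of reads per gene without normalization. The authors also deposited an FPKM value, the count divided by gene length and a library total whose reads are not named, and that total, recovered from count, FPKM and length, served as library size. Gene length is that of all exons of GENCODE release 29 (GRCh38) joined, which lowers the FPKM of genes with many alternative exons such as TPM1. Each list ends partway through a line, which was dropped.

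Exons of VCL, TAGLN, TPM1 and TPM4 overlap genes on the opposite strand over 11.1%, 11.39%, 16.08% and 9.604% of their length, so their counts may include reads of AP3M1, PCSK7, TPM1-AS and AC008894.3. No pair of replicates agreed within sampling noise (chi-square per degree of freedom 2.29 to 42.2).

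Counts were tested in R 4.3.3 with edgeR 4.0.16 (estimateDisp, glmQLFit, glmQLFTest, Benjamini-Hochberg) over 4236 genes listed for 9 libraries, and over 9369 genes listed for all but rimonabant replicate 1, with a mean FPKM of at least 1. The common biological coefficient of variation was 0.0696 and 0.0604. The thresholds were an adjusted p of 0.05 and an absolute log2 fold change of 1. Approximate standard errors (SE) were taken as the absolute log2 fold change over the root of the F statistic, and 95% intervals rest on them. Alternatives, 23 in all, included limma 3.58.1 and DESeq2 1.42.0, and scaling that does not rest on the library total. CArG boxes were searched in the sequences of the promoter windows, as the strict SRF consensus of 10 bases. Tables were handled in Python 3.11.15 (pandas 2.3.3, scipy 1.17.1, numpy 2.4.6) and plots drawn with matplotlib 3.10.9.

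The members, lists and tests were chosen with earlier results of these data known. Besides the members, SRF, MRTFA and MRTFB, the genes named from each list are among up to 4 with the largest absolute change that passed with groups that do not overlap, and others are said to be outside that rule.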

Additional observations from a re-analysis of the deposited data

How the results depend on the processing

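Of 684 recomputed values for the 10 genes in the 3 comparisons, 654 kept their direction and their side of the threshold, 24 no longer passed, 5 newly passed, and TAGLN between the treatments turned to 0.00205 with quantile normalization (adjusted p = 0.983). FLNA with TXX-1-10 was not past the threshold after quantile normalization (-0.24, adjusted p = 0.118). Members lower with TXX-1-10 past the fold threshold numbered 4 in place of 5, and those lower with rimonabant 1 in place of 2, with limma on log2(FPKM + 1), with a mean FPKM of at least 5, which leaves out TAGLN and TPM1, and with quantile normalization. Between the treatments, quantile normalization left 0 past it in place of 1, and leaving out 1 library gave 1 to 2. Genes higher with TXX-1-10 than with rimonabant numbered 1 in place of 2 after a length correction, alone or with the replicate block, and 1 to 3 when 1 library was left out.

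Replicate numbers do not pair the samples (correlations of same-numbered deviations -0.79, 0.83 and -0.61 between the treatments, near 0 with vehicle). With the replicate block ACTN1 between the treatments was at -0.16 (adjusted p = 0.0606), and no other call on the 10 genes changed.

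Outside the 10 genes, TMSB10 with TXX-1-10 went from -0.52 to 0.0275 under quantile normalization (adjusted p = 0.507). SRF with TXX-1-10 went to 0.0420 (TMM), 0.0438 (median), 0.0436 (DESeq2) and 0.0442 (quantile), and CCN1 with rimonabant to 0.0135 (quantile). PFN2 with rimonabant, at 0.00, went to -0.000106 with the replicate block, -0.0163 without both length-trend libraries and in the fit of 8 libraries, and -0.0332 and -0.0327 with the length correction, alone and with the block. Leaving out 1 library gave PFN2 -0.0300 to 0.0250 and PARVA -0.0183 to 0.0309.

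Genes with few reads beyond the end of the shortest list are not analysed here. TAGLN had 190 to 448 reads per library, the fewest of the 10 genes.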

Other observations

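As a description over the libraries of all 3 treatments, with no test, the gene outside the 10 whose log2 CPM (counts scaled to the library total) ran closest to each was sought among 4235 genes (9368 for TAGLN and TPM1). All libraries share their treatment groups, so many genes reach a high correlation. ACTB and ACTG1 were near-neighbours of each other (Pearson r 0.999), next to KPNA2, an importin, for ACTB and the glycolytic enzyme GAPDH for ACTG1 (0.998). MYL9 ran closest to CAV1 (0.998), which encodes the caveolae protein caveolin 1, and VCL to TGFBR2 (0.997), a TGF-beta receptor. ACTN1 ran closest to the adaptor SHC1 (0.996), FLNA to PPRC1 (0.994), TPM4 to WDR43 (0.994) and ZYX to SCO1 (0.976). Over 8 libraries TPM1 ran closest to MECR (0.998) and TAGLN to CXorf38 (0.995).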
